A study of Homo sapiens with 18 samples.

Results

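IL6 and NF-kB response genes are described here across RNA from cells labelled A549, a lung adenocarcinoma line. The members are 10 genes taken by name from an expression table of 36576 genes: IL6, CXCL8, CXCL1, ICAM1, BIRC3, TNFAIP3, NFKBIA, NFKB1, NFKB2 and RELB. They were read in 9 input RNA-seq libraries, 3 from cells exposed for 24 h to 10 mg/L BPQD (black phosphorus quantum dots), 3 from cells exposed for 24 h to 100 mg/L TiO2 (titanium dioxide) and 3 from untreated control cells. All 3 groups were the same line in the same medium, and the doses differed between the materials, so BPQD against TiO2 compares the exposures as given. Each group also had 3 immunoprecipitated libraries for N6-methyladenosine (m6A), a base modification of mRNA, and these are read only through the authors' deposited tables of m6A peaks.

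NF-kB is a family of dimeric transcription factors that inhibitor proteins hold in the cytoplasm until cytokines, microbial products or stress lead to their release. In the classical branch NFKB1 gives the p50 subunit and its partner RELA carries the activation domain, while in the alternative branch NFKB2 gives p52, which pairs with RELB. The dimers bind kB elements in DNA and raise cytokines such as IL6, and they also raise their own brakes, NFKBIA and TNFAIP3. In airway epithelium this program is known for the production of IL6 and of chemokines that draw neutrophils.

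The label of the cells was checked first. The keratins KRT7, KRT8 and KRT18 lay between 206 and 582 FPKM in every library (FPKM scales fragments to transcript length and library size), but the lung lineage factor NKX2-1 and the surfactant gene SFTPB reached at most 0.0970 and 0.0336 FPKM. ABCA3, which carries surfactant lipid in alveolar type II cells, lay between 7.75 and 11.9 FPKM. Of the other lung epithelium markers read, EPCAM lay between 2.02 and 3.09 FPKM and MUC1 between 3.44 and 5.57. KRT19, CDH1 and SFTPC reached at most 0.624, 0.409 and 0.144 FPKM. CDKN2A, which is deleted in A549, averaged 19.5 ± 0.380 FPKM under BPQD, 20.9 ± 0.591 under TiO2 and 24.2 ± 2.77 in control cells (SD, n = 3 each), which goes against the label. Of 6 leukocyte markers only CD68 passed 1 FPKM, and PTPRC, LYZ and CD3E reached at most 0.0907 FPKM. The tables hold no counts, and the depth behind each value is therefore unknown. The labels do not say whether replicates were separate cultures, and a p-value here covers the spread of these libraries alone, which may be technical. In such bulk RNA, fewer cells that make a transcript and less of it per cell cannot be told apart.

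The promoters were read first, because the kB element is what these genes are known to share. RefSeq (GRCh38.p14) gave 12 promoter windows for 9 of the 10 members, each holding 250 bases before the start of transcription and 50 after it. The 10-base kB consensus was found exactly, on either strand, in 8 of the 12 windows (66.7%), against 2075 of all 35116 windows in the table (5.91%). With 1 mismatch allowed it was in 11 of 12, against 50.2% of all windows. NFKB1 gave 2 of the windows and NFKB2 gave 3, so the windows are not independent. As the members are genes known for this element, a share above that of all windows was given in advance. A match is a description of these letters and says nothing of binding in these cells. These are 6 of the windows, on the gene's strand with the match in capitals, chosen to show the element beside a cytokine, a chemokine, an adhesion gene, both feedback inhibitors and a subunit:
IL6: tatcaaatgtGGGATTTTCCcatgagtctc
CXCL8: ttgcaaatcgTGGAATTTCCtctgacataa
ICAM1: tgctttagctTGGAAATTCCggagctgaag
TNFAIP3: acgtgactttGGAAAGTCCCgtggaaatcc
NFKBIA: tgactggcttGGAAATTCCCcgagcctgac
NFKB1: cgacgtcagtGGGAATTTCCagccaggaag

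The IL6 window lies at chr7:22727117-22727146 on the plus strand, and its match begins 73 bases upstream of the start. Those of CXCL8 (chr4:73740467-73740496) and ICAM1 (chr19:10270923-10270952), both on the plus strand, have 1 mismatch and begin 92 and 187 bases upstream. In TNFAIP3 (chr6:137867182-137867211, plus strand) 2 exact matches lie next to each other, beginning 67 and 55 bases upstream, and only the first is in capitals. The NFKBIA match (chr14:35404811-35404840, minus strand) begins 81 bases upstream and that of NFKB1 (chr4:102501300-102501329, plus strand) 49 bases upstream. The IL6 row of the deposited table begins upstream of the RefSeq start, so this match lies inside the row. In RNA these 6 genes did not move alike: IL6, ICAM1 and TNFAIP3 rose with both materials, NFKBIA fell, NFKB1 did not pass the test and CXCL8 was too low for it.

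**Figure D1:**
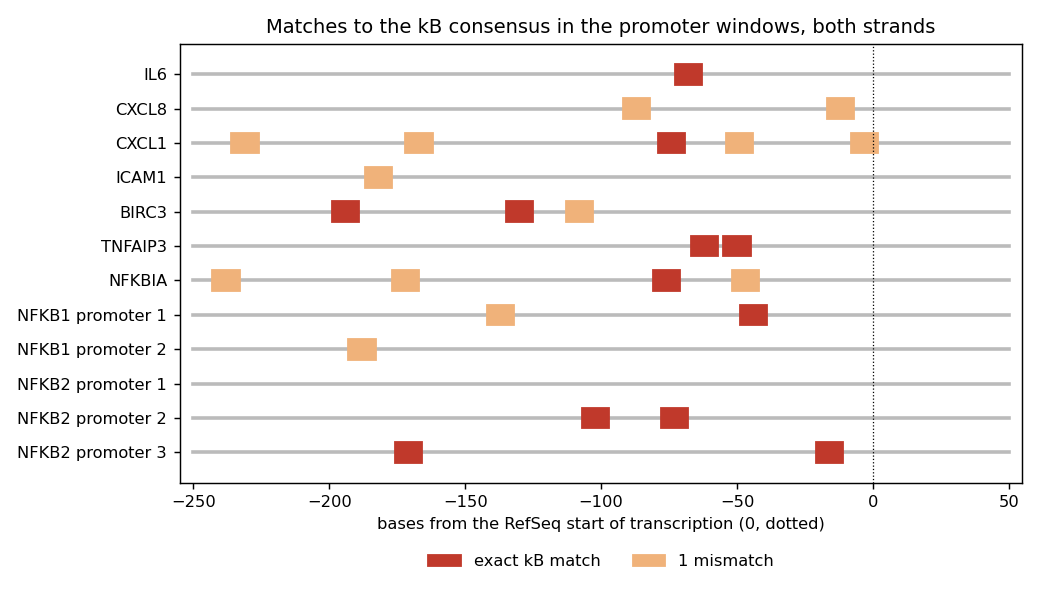
Positions of kB consensus matches, on the x axis in bases from the RefSeq start, for the 12 promoter windows of 9 genes (rows); dark boxes are exact matches and pale boxes have 1 mismatch. Exact matches are in 8 of the 12 windows, and IL6 has a single box, beginning 73 bases upstream.

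In cells exposed to either material, IL6, the adhesion molecule ICAM1 and the deubiquitinase TNFAIP3 were higher than in untreated cells, and NFKBIA, the gene of the inhibitor IkBa, was lower. IL6 moved most, to 2.45 times the control mean under BPQD and 3.37 times under TiO2, while NFKBIA fell to 0.652 and 0.793 times. The subunit gene NFKB1 did not pass in any comparison, and its libraries overlapped between all groups. ICAM1, IL6, TNFAIP3, NFKBIA and NFKB2 were each lower under BPQD than under TiO2.

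Expression was tested with limma on log2(FPKM + 1) over the 12224 genes that averaged at least 1 FPKM over the 9 libraries. Of the 10 members 7 passed that minimum, and each of the 7 also averaged over 1 FPKM in control cells. Under BPQD 6 of the 7 were called, where 44.0% of all tested genes were. Of these 5 rose and 1 fell, where 20.6% of all tested genes rose and 23.4% fell. With values rescaled to TPM the rises made up 58.3% of all called genes, against 46.9% on the deposited scale, and the counts for the members did not change. Under TiO2 6 of 7 were called, against 37.7% of all tested genes, and again 5 rose and 1 fell, where 17.3% of all tested genes rose and 20.5% fell. In BPQD against TiO2 5 of 7 were called, against 37.6%, all of them lower under BPQD, where 18.6% of all tested genes were lower and 19.0% higher. Libraries of the compared groups did not overlap for 6 of the 7 tested members under BPQD, 5 under TiO2 and 5 in BPQD against TiO2, beside 55.6%, 51.7% and 51.1% of tested genes. The comparisons with untreated cells share their control libraries, so the second is no independent repeat of the first. The members were chosen with earlier results of these data known, so their shares beside those of all tested genes are description only. The median log2 difference of the 7 was 0.18 under BPQD and 0.43 under TiO2, beside -0.01 and -0.02 over all tested genes.

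**Figure D2:**
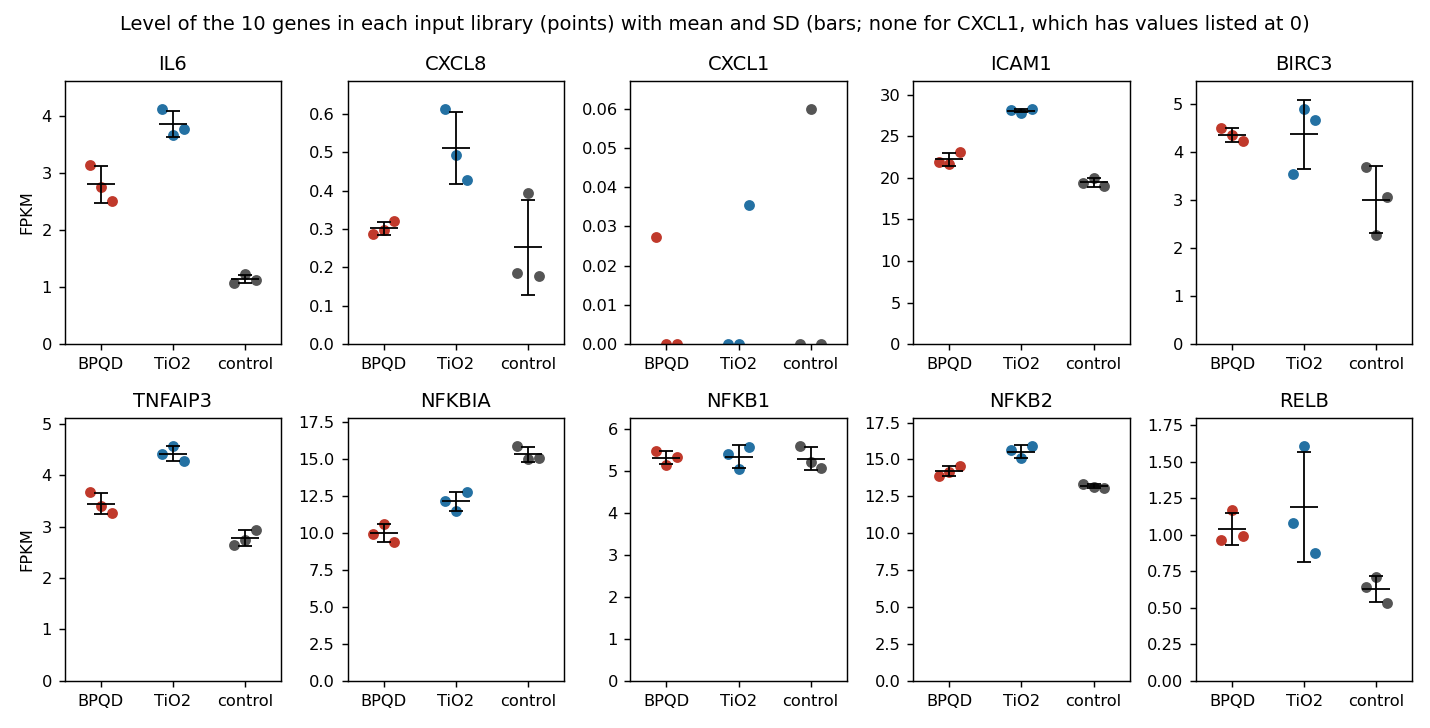
FPKM (y axis, from 0) of each of the 10 genes in every input library (points) of the BPQD, TiO2 and control groups, with mean and SD as bars (not for CXCL1). IL6 lies at 2.50 to 3.14 under BPQD and 3.67 to 4.12 under TiO2, above 1.08 to 1.22 in controls, and NFKBIA is lowest under BPQD and highest in controls.

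IL6 (chromosome 7, 22725884 to 22732002) encodes interleukin 6, a cytokine that signals through IL6ST and STAT3. It had 3.14, 2.76 and 2.50 FPKM in BPQD libraries, 4.12, 3.67 and 3.77 in TiO2 libraries, and 1.08, 1.22 and 1.13 in control libraries. The 3 groups did not overlap, with TiO2 highest and control lowest. On the log2(FPKM + 1) scale, which understates the change of low genes, the difference from control was 0.82 ± 0.07 under BPQD (SE, adjusted p = 7.9e-05) and 1.18 ± 0.07 under TiO2 (adjusted p = 2.19e-05). BPQD against TiO2 gave -0.36 ± 0.07 (adjusted p = 0.00487). Ranked from the largest rise, IL6 was at place 107 of 12224 under BPQD and 32 under TiO2. The row overlaps 2 genes on the other strand, STEAP1B over 1730 bases and AC073072 over 1737. STEAP1B reached at most 0.0535 FPKM, and AC073072 averaged 0.276 FPKM under BPQD, 0.542 under TiO2 and 0.290 in controls. Whether counting used strand is not stated, so reads over these stretches cannot be told apart.

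The CXC chemokines CXCL8 and CXCL1, which recruit neutrophils, were near the lower end of what was measured. CXCL8 (chromosome 4, 73740541 to 73743716) had 0.287, 0.297 and 0.321 FPKM under BPQD, 0.612, 0.494 and 0.427 under TiO2, and 0.187, 0.395 and 0.176 in controls. All 3 TiO2 values lay above the controls, while the BPQD values fell among them. The means were 0.302 ± 0.0176, 0.511 ± 0.0940 and 0.253 ± 0.124 FPKM (SD, n = 3 each). CXCL8 was below the minimum for the model, and a two-sided exact permutation test gave p = 0.4 for BPQD and p = 0.1 for TiO2 against control, 0.1 being the smallest that 3 against 3 allow. Of 8241 genes that averaged 0.1 to 1 FPKM, 5.36% had all TiO2 libraries above all controls. CXCL1 was listed at 0 in 6 of 9 libraries and had 0.0274 FPKM in 1 BPQD, 0.0353 in 1 TiO2 and 0.0598 in 1 control library, so no fold is given.

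ICAM1 (chromosome 19, 10271093 to 10286615), a surface molecule that binds leukocyte integrins, was the most abundant of the 10 genes in every group. It had 21.9, 21.7 and 23.1 FPKM under BPQD, 28.2, 27.9 and 28.3 under TiO2, and 19.3, 20.01 and 19.0 in controls. The groups did not overlap, and the TiO2 libraries lay closest together. The log2 difference was 0.18 ± 0.03 under BPQD (adjusted p = 0.00224), 0.51 ± 0.03 under TiO2 (adjusted p = 3.04e-05) and -0.32 ± 0.03 for BPQD against TiO2 (adjusted p = 0.000187). Antisense rows named for the clone AC011511 overlap it, at no more than 0.179 FPKM.

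BIRC3 (chromosome 11, 102317450 to 102339403) encodes cIAP2, a ubiquitin ligase that acts in TNF receptor signalling and restrains cell death. Its values were 4.51, 4.36 and 4.22 FPKM under BPQD, 3.55, 4.89 and 4.67 under TiO2, and 3.69, 2.28 and 3.07 in controls. The BPQD libraries lay above the controls, whereas 1 TiO2 library fell below the highest control. The log2 difference was 0.43 ± 0.14 under BPQD (adjusted p = 0.0385) and 0.43 ± 0.14 under TiO2 (adjusted p = 0.0463). Leaving out BPQD replicate 1 (0.41), 2 (0.43) or 3 (0.45), TiO2 replicate 3 (0.43) or control replicate 2 (0.30) or 3 (0.45) ended the BPQD call, with adjusted p up to 0.0971. Leaving out BPQD replicate 1, 2 or 3 (each 0.43), TiO2 replicate 2 (0.36) or 3 (0.38) or control replicate 2 (0.29) or 3 (0.44) ended the TiO2 call, with adjusted p up to 0.136. BPQD against TiO2 was 0.01 with a 95% interval of -0.32 to 0.33.

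TNFAIP3 (chromosome 6, 137867214 to 137883312) encodes A20, which edits ubiquitin chains on signalling proteins and dampens NF-kB activation. It had 3.67, 3.41 and 3.27 FPKM under BPQD, 4.41, 4.57 and 4.28 under TiO2, and 2.64, 2.73 and 2.94 in controls. The groups stood apart in the same order as for IL6 and ICAM1. Its log2 difference was 0.24 ± 0.05 under BPQD (adjusted p = 0.00524), 0.52 ± 0.05 under TiO2 (adjusted p = 0.000161) and -0.29 ± 0.05 for BPQD against TiO2 (adjusted p = 0.00257). AL357060, on the other strand over 1020 bases of the row, had 0.200 to 0.507 FPKM. A20 and IkBa both limit the pathway, but their mRNAs differed from control in opposite directions.

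NFKBIA (chromosome 14, 35401511 to 35404749, minus strand) encodes IkBa, which binds NF-kB dimers and keeps them out of the nucleus. It had 9.96, 10.6 and 9.42 FPKM under BPQD, 12.2, 11.5 and 12.8 under TiO2, and 15.9, 15.01 and 15.1 in controls. Every exposed library lay below every control, and BPQD libraries lay below TiO2 libraries. NFKBIA fell by 0.57 ± 0.05 on the log2 scale under BPQD (adjusted p = 0.000122) and by 0.31 ± 0.05 under TiO2 (adjusted p = 0.00272). The difference of BPQD from TiO2 was -0.26 ± 0.05 (adjusted p = 0.00613). It was the only member called lower in a comparison with control.

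Of the subunit genes NFKB1 and NFKB2 were tested, and RELB was below the minimum level. NFKB1 (chromosome 4, 102501331 to 102617302) had 5.47, 5.15 and 5.32 FPKM under BPQD, 5.40, 5.04 and 5.56 under TiO2, and 5.59, 5.21 and 5.06 in controls. All groups overlapped, and the 95% intervals of the log2 difference from control were -0.10 to 0.11 under BPQD and -0.10 to 0.12 under TiO2. NFKB2 (chromosome 10, 102394110 to 102402524) had 13.9, 14.2 and 14.6 FPKM under BPQD, 15.6, 15.1 and 15.9 under TiO2, and 13.3, 13.2 and 13.1 in controls. Its groups did not overlap, though the steps were small: 0.10 ± 0.03 under BPQD (adjusted p = 0.0249) and 0.22 ± 0.03 under TiO2 (adjusted p = 0.000863). Leaving out BPQD replicate 2 (0.10) or 3 (0.08) or control replicate 2 (0.10) or 3 (0.09) ended the BPQD call, with adjusted p up to 0.0765. BPQD against TiO2 gave -0.12 ± 0.03 (adjusted p = 0.0131), which did not pass with values rescaled to TPM (-0.09, adjusted p = 0.0503).

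RELB (chromosome 19, 45001449 to 45038198), the partner of p52, averaged 0.954 FPKM over the 9 libraries and so was not in the model. It had 0.967, 1.17 and 0.993 FPKM under BPQD, 1.08, 1.61 and 0.877 under TiO2, and 0.645, 0.710 and 0.533 in controls. All 6 exposed libraries lay above all 3 controls, as did those of 17.2% of genes of 0.1 to 1 FPKM under BPQD and 5.36% under TiO2, and the TiO2 libraries spread widely. The exact permutation test gave p = 0.1 against control for each material, the smallest possible. With no minimum level, limma gave 0.33 ± 0.12 for BPQD (adjusted p = 0.125) and 0.41 ± 0.12 for TiO2 (adjusted p = 0.0778).

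**Figure D3:**
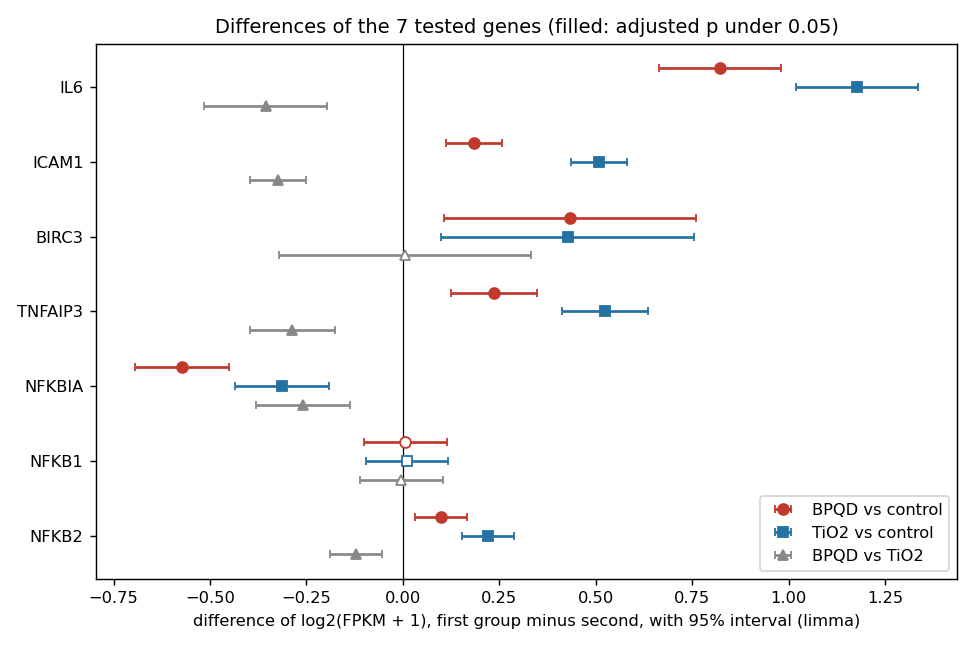
Difference of log2(FPKM + 1) (x axis) with its 95% interval from limma for the 7 tested genes (rows), for BPQD against control (circles), TiO2 against control (squares) and BPQD against TiO2 (triangles); filled symbols passed adjusted p under 0.05. IL6 lies farthest right at 0.82 and 1.18, NFKBIA lies left of 0 in all 3 comparisons, and the symbols of NFKB1 are open.

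Levels spanned from ICAM1 down to CXCL1, and FPKM, being scaled to length, allows genes to be set beside each other. In control cells the order of mean FPKM was ICAM1 (19.5), NFKBIA (15.3), NFKB2 (13.2), NFKB1 (5.29), BIRC3 (3.01), TNFAIP3 (2.77), IL6 (1.14), RELB (0.629), CXCL8 (0.253) and CXCL1. Only the ranges of BIRC3 and TNFAIP3 overlapped among these neighbours. Under BPQD no neighbours overlapped, and under TiO2 the ranges of TNFAIP3 and BIRC3 and of BIRC3 and IL6 did. NFKBIA stood above NFKB2 in control cells and below it in both exposed groups, where NFKB2 averaged 14.2 and 15.5 FPKM and NFKBIA 10.0 and 12.2.

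The profile of IL6 over the 9 libraries was then set beside that of every tested gene, by the Euclidean distance of log2(FPKM + 1) from the gene's control mean. The nearest were ZNF888, a zinc finger gene (distance 0.453), the noncoding LINC01537 (0.682), the kinetochore gene KNSTRN (0.806) and RND3 (0.807). No member was among these 4. ZNF888 averaged 0.465 FPKM in controls, 1.74 under BPQD and 1.90 under TiO2, so it reached the minimum level only through the exposed libraries. TNFAIP3 was the nearest of the members at 1.53, followed by BIRC3 at 1.58 and ICAM1 at 1.62, and NFKBIA was farthest at 3.54. The calls of KNSTRN were lost under 6 of 17 alternatives in each comparison with control, among them leaving out any of the 3 control libraries, BPQD replicate 1 or 2 (for BPQD) or TiO2 replicate 1 or 3 (for TiO2). Its difference ranged from 0.71 to 1.13 under BPQD and 0.85 to 1.19 under TiO2 over all alternatives, with a highest adjusted p of 0.0894 and 0.0638.

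Of 48 other target genes of NF-kB listed by name 27 were tested. Under BPQD 2 of 27 rose and 8 fell, where 20.6% of all tested genes rose and 23.4% fell, so the falls are near that background. Under TiO2 14 rose and 2 fell, where 17.3% of all tested genes rose and 20.5% fell. Gene by gene in BPQD against TiO2, 1 was higher and 14 were lower, where 19.0% of all tested genes were higher and 18.6% lower. The list as a whole was not tested. Like the lists below, it was chosen with earlier results of these data known, so its shares are description only. The list's median log2 difference was -0.09 under BPQD, 0.26 under TiO2 and -0.24 for BPQD against TiO2, where the medians of all genes were -0.01, -0.02 and 0.00.

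Among these targets the acute phase gene SAA1 averaged 2.07 FPKM under BPQD, 4.92 under TiO2 and 1.81 in controls. It rose by 1.08 ± 0.12 on the log2 scale under TiO2 (adjusted p = 0.000365), and its BPQD difference was 0.12 ± 0.12. F3, the tissue factor that starts clotting, averaged 8.02, 15.9 and 8.45 FPKM and rose under TiO2 (0.84 ± 0.05, adjusted p = 3.38e-05). The chemokine CCL5 (0.70 ± 0.10) and the complement factor CFB (0.70 ± 0.05) also rose under TiO2, with BPQD differences of 0.22 ± 0.10 and 0.11 ± 0.05 that did not pass. IER3, an early survival gene, averaged 20.2 FPKM under BPQD, 46.9 under TiO2 and 29.1 in controls, so that it fell under BPQD (-0.51 ± 0.04) and rose under TiO2 (0.67 ± 0.04). PTGES, which makes prostaglandin E2, did likewise at 83.7, 154 and 113 FPKM (-0.43 ± 0.03 and 0.44 ± 0.03). In BPQD against TiO2 IER3 differed by -1.18 ± 0.04 (adjusted p = 2.58e-06) and PTGES by -0.87 ± 0.03 (adjusted p = 1.78e-06). The protease PLAU fell under BPQD (-0.59 ± 0.05) and TiO2 (-0.35 ± 0.05), and so did the complement gene C3 (-0.21 ± 0.03 and -0.32 ± 0.03). The kinase genes RIPK2 (0.23 ± 0.05 and 0.34 ± 0.05) and IRAK2 (0.18 ± 0.05 and 0.37 ± 0.05) rose with each material. The methyltransferase NNMT fell under BPQD (-0.34 ± 0.04), and its TiO2 difference was 0.09 ± 0.04.

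Most tested genes upstream of NF-kB did not pass, as among all tested genes, of which 44.0% passed under BPQD and 37.7% under TiO2. Of 14 inducing ligands IL18 alone had the minimum level, with log2 differences of -0.23 ± 0.16 under BPQD and 0.18 ± 0.16 under TiO2 that did not pass. The counts of the lists that follow stand beside 20.6% of all tested genes that rose and 23.4% that fell under BPQD, and 17.3% and 20.5% under TiO2. Of 7 tested receptors 3 rose under BPQD and 2 under TiO2, and none fell, 7 genes being too few to set apart from those shares. The death receptor gene TNFRSF10A rose under BPQD (0.20 ± 0.04) and TiO2 (0.12 ± 0.04), the second call being lost under 9 of 17 alternatives. The interleukin 1 coreceptor IL1RAP also rose under BPQD (0.15 ± 0.04), a call lost under 5 of 16 alternatives, and TiO2 (0.32 ± 0.04). EGFR rose under BPQD (0.19 ± 0.02), and its TiO2 difference was -0.01 ± 0.02. Among 22 adaptors and kinases 1 rose and 4 fell under BPQD, and 2 rose and 4 fell under TiO2, the falls being near background. The kinases IRAK1 and IRAK4, which relay interleukin 1 and Toll-like receptor signals, fell with each material. IRAK4 averaged 1.29 FPKM under BPQD, 1.69 under TiO2 and 2.53 in controls (-0.62 ± 0.09 and -0.39 ± 0.09), and IRAK1 32.0, 34.4 and 44.7 FPKM (-0.47 ± 0.08 and -0.37 ± 0.08). CHUK, the IKKa kinase, rose under TiO2 (0.30 ± 0.05), and its BPQD difference was 0.08 ± 0.05.

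Of 14 other subunits and inhibitors 3 rose and 4 fell under BPQD (over the alternatives 1 to 4 and 1 to 5), and 3 rose and 2 fell under TiO2 (0 to 3 and 1 to 3), shares near background. RELA, the classical activating subunit, had 10.4, 10.5 and 8.38 FPKM under BPQD, 7.17, 7.80 and 7.07 under TiO2, and 10.3, 12.2 and 13.6 in controls. All TiO2 libraries lay below the others, and RELA fell under TiO2 by 0.64 ± 0.11 on the log2 scale (adjusted p = 0.00322). Its BPQD difference of -0.28 ± 0.11 did not pass (adjusted p = 0.0788). The coactivator BCL3 fell under BPQD (-0.36 ± 0.09), with a TiO2 difference of -0.02 ± 0.09. COMMD1, which promotes RELA turnover, rose under TiO2 (0.25 ± 0.04), with a BPQD difference of -0.01 ± 0.04. The BPQD calls of REL (0.47 ± 0.15), TNFAIP8 (-0.42 ± 0.13) and the repressor NKRF (1.36 ± 0.43) were each lost under 7 to 9 of 16 or 17 alternatives, most of them with 1 library left out, with adjusted p up to 0.103.

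Around IL6 itself, 15 genes of its receptor and JAK-STAT signalling were tested, of which 5 rose and 3 fell under BPQD and 7 rose and 2 fell under TiO2. The falls are no more frequent than among all tested genes (23.4% and 20.5%), of which 20.6% and 17.3% rose. The receptor gene LIFR rose under BPQD (0.53 ± 0.03, adjusted p = 1.11e-05) and TiO2 (0.15 ± 0.03, adjusted p = 0.00372). OSMR, the receptor gene of oncostatin M, rose under TiO2 (0.39 ± 0.02), and its BPQD difference was -0.0042 ± 0.02. PIAS3, an inhibitor of STAT3, fell under BPQD (-0.29 ± 0.04) and TiO2 (-0.31 ± 0.04). The shared receptor chain IL6ST, singled out after its values were seen, averaged 8.42 FPKM under BPQD, 8.48 under TiO2 and 7.12 in controls and rose in each comparison with control (0.21 ± 0.03 and 0.22 ± 0.03). Of 14 genes that destabilize or stabilize cytokine mRNA 6 rose and 2 fell under BPQD, and 2 rose (0 or 1 under most alternatives) and 3 fell under TiO2, beside the same background of 20.6% and 23.4% under BPQD and 17.3% and 20.5% under TiO2. ZC3H12A, the nuclease Regnase-1 that cuts IL6 mRNA, averaged 5.77 FPKM under BPQD, 6.33 under TiO2 and 7.07 in controls and fell under BPQD (-0.25 ± 0.06, adjusted p = 0.0103), with a TiO2 difference of -0.14 ± 0.06. ZFP36L1, which promotes decay of AU-rich mRNA, fell under BPQD (-0.40 ± 0.07), and HNRNPD rose (0.36 ± 0.04), with TiO2 differences of 0.12 ± 0.07 and 0.04 ± 0.04. UPF1, the helicase of nonsense-mediated decay, rose under BPQD (0.09 ± 0.03, adjusted p = 0.0313) and fell under TiO2 (-0.31 ± 0.03). Its BPQD call was lost under 7 of 17 alternatives, among them leaving out BPQD replicate 1 or 3 or control replicate 2 or 3, and its difference ranged from 0.07 to 0.15 over all alternatives.

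CD68, a lysosomal protein on the leukocyte list, averaged 11.96 FPKM under BPQD, 20.1 under TiO2 and 11.6 in controls and so moved with the TiO2 rises. CD14, the next highest of that list, did not, averaging 0.173, 0.245 and 0.320 FPKM. The summed leukocyte markers ranged over 11.8 to 12.8 FPKM under BPQD, 17.6 to 23.1 under TiO2 and 11.1 to 13.2 in controls, most of it CD68. The summed fibroblast markers, with LUM the highest, ranged over 13.9 to 24.8 FPKM under BPQD, 27.9 to 37.7 under TiO2 and 29.3 to 29.8 in controls. The 4 tested fibroblast markers did not move alike under TiO2. LUM and FAP averaged 24.7 and 1.90 FPKM there, above 20.5 and 1.13 in controls. COL1A1 and PDGFRB averaged 1.65 and 2.25 FPKM under TiO2, below 3.14 and 3.19 in controls. Endothelial markers summed to 1.22 to 1.38 FPKM under BPQD, 2.16 to 3.92 under TiO2 and 3.03 to 3.73 in controls. Most of that was CDH5, the only 1 of 5 to pass 1 FPKM. Epithelial markers summed to 865 to 885, 964 to 1059 and 1170 to 1256 FPKM, nearly all of it KRT7, KRT8 and KRT18. EPCAM went the other way, averaging 2.68 FPKM under BPQD, 2.71 under TiO2 and 2.19 in controls. Of 6 tested epithelial markers 5 were called lower under BPQD and 4 under TiO2, beside 23.4% and 20.5% of all tested genes. The part of these markers in the results was not tested.

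**Figure D4:**
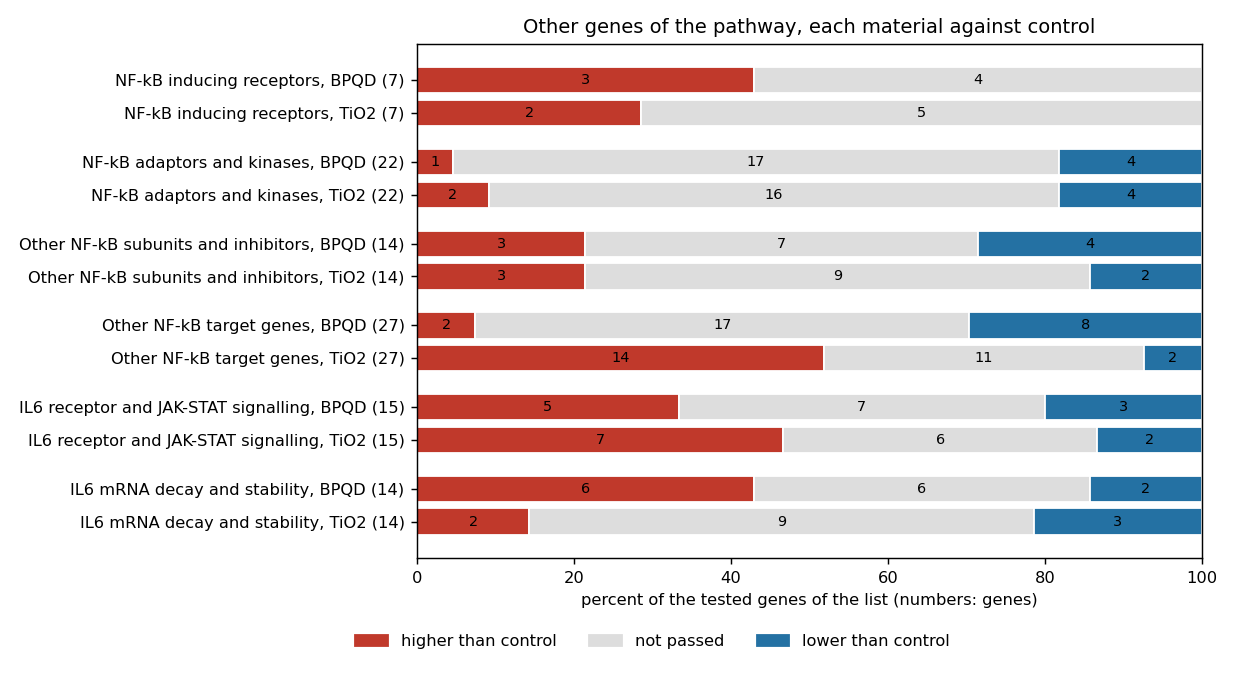
Share of each fixed list's tested genes (x axis, percent) that were called higher than control, not passed or called lower than control, with the number of genes in each segment, for BPQD and TiO2 (rows; list size in parentheses). The other NF-kB targets show 14 higher and 2 lower under TiO2, against 2 higher and 8 lower under BPQD.

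In the m6A data, the authors' deposited tables of differential peaks held 9 peaks named for the members, 4 in the BPQD table and 5 in the TiO2 table. No peak in either was named for IL6, CXCL8, CXCL1 or NFKB1. A peak was listed for 3 of the 7 tested members in each table, where 54.4% of tested genes had a peak in the BPQD table and 51.2% in the TiO2 table. In the authors' deposited table for BPQD 3 of 4 member peaks had p under 0.05, beside 64.8% of all 14903 peaks: 1 was higher and 2 were lower, beside 37.7% and 27.1%. In the authors' deposited table for TiO2 3 of 5 did, beside 64.1% of all 12888 peaks: 2 were higher and 1 was lower, beside 40.3% and 23.8%. An FDR under 0.05 was given to 2 member peaks in each deposited table of the authors, beside 43.7% of BPQD and 40.0% of TiO2 peaks. With so few peaks these shares do not stand apart from the background. Higher and lower are read against 0, while the median log2 fold change of all peaks lay above it. That median was 0.159 in the authors' deposited table for BPQD and 0.153 in that for TiO2. The tables hold no value per immunoprecipitated library, so no spread can be given.

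NFKBIA had the largest m6A differences of the 9 and was the only member with a peak in both tables. In the authors' deposited table for BPQD, a peak of 209 bases in its 5' UTR (chromosome 14, 35404541 to 35404749) had a log2 fold change of -1.02 with p = 3.16e-06 and an FDR of 6.31e-05. In the authors' deposited table for TiO2 the peak there was 179 bases wide (35404571 to 35404749), lay wholly within the other and had a log2 fold change of -0.84 with p = 2.09e-05. Both end at the base where the NFKBIA row starts to be transcribed, so they cover its 5' end. Antibodies against m6A are known to bind the methylated adenosine beside the cap as well, and these peaks do not separate it from internal sites. The mRNA ratio of NFKBIA in the authors' deposited tables was -0.62 under BPQD and -0.33 under TiO2 on the log2 scale. Both tables use the same control libraries.

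The other peaks differed less. In the authors' deposited table for BPQD, BIRC3 had a 5' UTR peak (chromosome 11, 102324375 to 102325496) with a log2 fold change of 0.21 (p = 0.00182) and an exon peak spanning 7933 bases (102328099 to 102336031) with -0.26 (p = 0.0151 and FDR 0.0724, as the authors give them), so peaks of this gene had opposite signs. The 5' UTR peak of NFKB2 (chromosome 10, 102394736 to 102395833) had -0.58 in the authors' deposited table for BPQD, where the authors' p was 0.0537. In the authors' deposited table for TiO2, ICAM1 had a 3' UTR peak of 418 bases (chromosome 19, 10285801 to 10286218) with 0.27 (p = 6.31e-05). A wide ICAM1 peak of 24717 bases, which reaches 10701 bases beyond the gene's row, had 0.15 (p = 0.200) in that deposited table of the authors. TNFAIP3 had a 3' UTR peak (chromosome 6, 137878462 to 137882116) with 0.11 (p = 0.0339, FDR 0.144), and RELB a 3' UTR peak of 180 bases (chromosome 19, 45037989 to 45038168) with -0.38 (p = 0.220), both in the authors' deposited table for TiO2. The TNFAIP3 peak (0.114) and the wide ICAM1 peak (0.146) lay below the median of all peaks there (0.153). Peaks named for the antisense AC011511 lie over the 3' end of ICAM1 in both deposited tables of the authors, from 10284791, with 0.15 (p = 2.51e-07) for BPQD and 0.25 (p = 1.58e-19) for TiO2. They give no strand, so peaks of ICAM1 and of its antisense cannot be told apart.

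**Figure D5:**
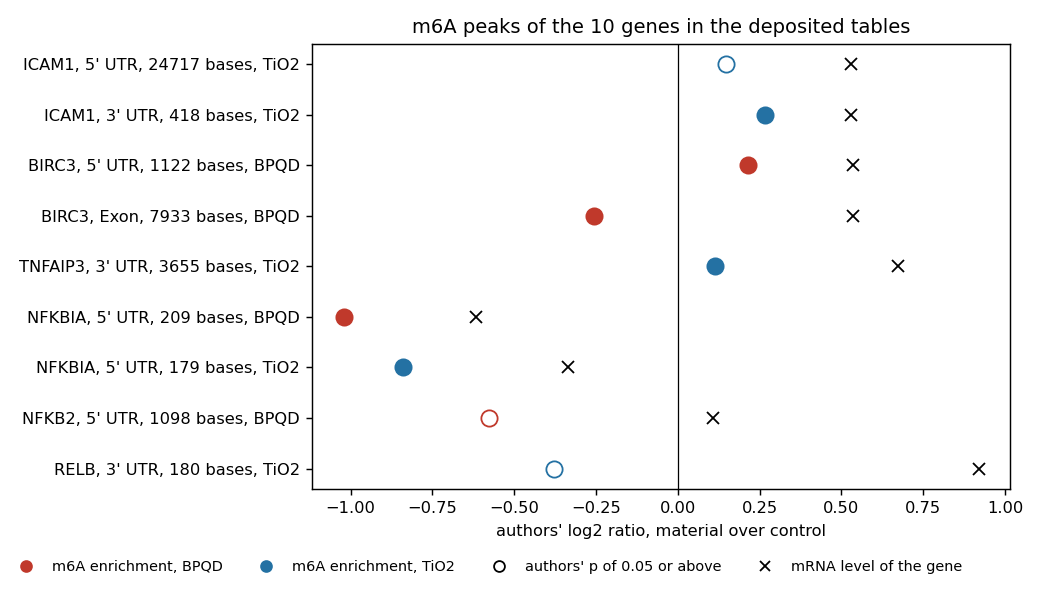
Authors' log2 ratio of material over control (x axis) for the 9 m6A peaks of the members (rows, with annotation, width and table): circles are m6A enrichment, open where the authors' p was 0.05 or above, and crosses the mRNA ratio of the gene in the same table. Both NFKBIA circles lie farthest left at -1.02 and -0.84, left of the crosses at -0.62 and -0.33.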

How the data were processed

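The authors deposited FPKM per gene for the 9 input libraries and, per material, a table of differential m6A peaks. Per the file headers, each peak has its p-value, its change in m6A enrichment as a log2 fold change, the log10 of its FDR (a score, from which the authors' FDR was computed) and the gene's log2 ratio of mRNA level. The submitters' processing notes name HISAT2 (no version named), StringTie 1.3.0 and the build mm10. The gene IDs are human, and of 24582 symbols shared with RefSeq GRCh38.p14 100% lay on the same chromosome and 97.9% started or ended within 1000 bases, so coordinates are read as GRCh38. The peak caller, any pooling of replicates and the use of strand are not stated there. The 12 FPKM columns of the peak tables were not used, and 3 repeated peak rows of the TiO2 table were dropped.

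Groups came from sample titles. Differences in expression were fitted by limma 3.58.1 (R 4.3.3) to log2(FPKM + 1) of the 12224 genes averaging 1 FPKM or more, all 9 libraries in 1 fit with a variance trend, two-sided, Benjamini-Hochberg adjusted p under 0.05 over all tested genes; the steps were tested on simulated data. Replicate numbers were not used as pairs. The rule for names took all members, up to 4 called genes per list with the largest change in each comparison with control (from which the text names a part), and the 5 genes nearest to IL6; some genes that meet it are not reported here. RELA's BPQD value, IL6ST, C3, RIPK2, IRAK2, the marker genes and genes given in a second comparison fall outside it and were chosen after their values were seen. The lists covered inducing ligands, receptors, adaptors and kinases, other subunits and inhibitors, other targets, IL6 receptor signalling and mRNA decay. The members and lists were chosen with earlier results of these data known. The kB search and figures used Python 3.11.15, pandas 2.3.3, numpy 2.4.6 and matplotlib 3.10.9. Without counts, no count model or counting interval was possible, and precision rests on 3 libraries per group. Alternatives were other pseudocounts, minimum levels, scalings, sample sets, a replicate block and peak thresholds.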

Additional observations from a re-analysis of the deposited data

How the results depend on the processing

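IL6, ICAM1, TNFAIP3 and NFKBIA kept their direction and their call in each comparison under every alternative that tested them. For IL6 the log2 difference ranged from 0.76 to 1.22 under BPQD, 1.14 to 1.67 under TiO2 and -0.45 to -0.30 for BPQD against TiO2, with adjusted p up to 0.0190. A minimum of 5 FPKM left 4 members tested, by its construction, and 3 called in each comparison. The calls of BIRC3 ended under 8 of 16 alternatives for BPQD and 10 of 16 for TiO2. No other members' call ended except those of NFKB2 given above. NFKB1, which passed in no setting, changed sign: for BPQD against TiO2 it was 0.033 with TPM, 0.012 with median centring and 0.013 with quantile normalization. With 1 library left out it ranged from -0.020 to 0.040 under BPQD, -0.015 to 0.045 under TiO2 and -0.038 to 0.021 for BPQD against TiO2, and BIRC3 from -0.11 to 0.078 for BPQD against TiO2. The causes were not tested.

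Same-numbered libraries of different groups deviated from their group means with correlations of -0.083 to 0.073 and differently numbered ones with -0.079 to 0.084. No pairing by number was seen, though 3 libraries per group cannot exclude one. With a replicate block 5 members were called in each comparison with control (4 higher, 1 lower), BIRC3 being the one lost (0.43, adjusted p = 0.0812 for BPQD, and 0.43, adjusted p = 0.0939 for TiO2), and 5 in BPQD against TiO2. Over all genes the block left 4996, 4160 and 4150 calls, against 5384, 4614 and 4596.

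Of the other NF-kB targets, under a minimum of 5 FPKM 5 rose under TiO2, 1 rose under BPQD and 7 were lower in BPQD against TiO2, with fewer genes tested. Short lists moved more: the count of mRNA decay genes higher under TiO2, 2 as reported, was 0 or 1 in 15 of 17 alternatives. Alternatives for the lists were chosen after seeing the data. Peak thresholds of FDR 0.05 or p 0.01 left 2 member peaks in each table. Without counts, depth sets no stated limit, and genes near 0 FPKM such as CXCL1 cannot be compared.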
